A study of Mus musculus with 9 samples.

Results

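The genes Gabra2, Gabra3, Gabra5, Gabrb1, Gabrg1 and Gabrg3 encode 6 subunits of the GABA-A receptor. They were taken by name from a table of 18956 mouse gene symbols, and all 6 were present. All 6 also passed the filter on low counts, which kept 18194 symbols. The data are bulk RNA sequencing of BALB/c mouse tissue labelled as the anterior paraventricular nucleus of the thalamus, a midline nucleus rich in glutamatergic neurons. The first group, called SHNK here, had 5 days of social defeat, the repeated exposure of a mouse to an aggressive one, and received (2S,6S)-HNK. This compound is a hydroxynorketamine, formed in the body from ketamine. The second, stressed saline, had the same defeat and saline. The third, non-stressed saline, had saline without defeat. Each group held 3 libraries. Dose, age and sex, and whether replicate libraries stem from different mice, are not stated in the labels, so p-values measure only the spread between these libraries, which may be technical.

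GABA-A receptors are chloride channels built of 5 subunits, usually 2 alpha, 2 beta and 1 gamma or delta subunit, and they carry most fast inhibition in the brain. The alpha subunit sets the affinity for GABA and the place of the receptor, and GABA binds between alpha and beta subunits. Benzodiazepines bind between a gamma subunit and an alpha subunit of certain types, alpha 2, alpha 3 and alpha 5 among them. In relay nuclei of the rodent thalamus alpha 4, beta 2 and delta are well-known subunits, and alpha 3 is better known from the reticular nucleus. Bulk libraries cannot tell fewer cells that express a gene from less RNA of it per cell.

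Codons that set drug binding separate the 3 alpha genes from Gabra4, and Gabrb1 from Gabrb2, so short coding stretches of both classes are shown. They were read from GENCODE M21 transcripts on GRCm38, 5′ to 3′ on the coding strand, and chosen after the values were seen. In the alpha class the capitals mark the codon for the histidine that benzodiazepine binding needs, and the codon at the same place in Gabra4 encodes an arginine.
Gabra2 (chr5:71014490-71014522, minus strand): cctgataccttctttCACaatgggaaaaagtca
Gabra3 (chrX:72501153-72501185, minus strand): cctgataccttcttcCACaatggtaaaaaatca
Gabra5 (chr7:57488876-57488908, minus strand): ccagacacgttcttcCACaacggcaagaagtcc
Gabra4 (chr5:71641137-71641169, minus strand): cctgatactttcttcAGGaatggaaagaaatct
In the beta class the capitals mark the codon known to set sensitivity to the anaesthetic etomidate, which encodes a serine in Gabrb1 and an asparagine in Gabrb2.
Gabrb1 (chr5:72121966-72121998, plus strand): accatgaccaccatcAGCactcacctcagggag
Gabrb2 (chr11:42597558-42597590, plus strand): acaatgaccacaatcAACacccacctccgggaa

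Over the aligned codons of the coding sequences, leaving out unaligned ones, Gabra2, Gabra3 and Gabra5 encoded 72.0% to 73.6% identical residues among themselves. Each was 61.0% to 61.4% identical to Gabra4. Gabrb1 was 79.9% identical to Gabrb2, and Gabrg1 was 70.9% identical to Gabrg3. These genes are distinct in sequence, but the sources used here do not say how the authors' counting treated reads shared between them.

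The genes lie in clusters on GRCm38. Gabrg1 (chr5:70751047-70842617) and Gabra2 (chr5:70957597-71095849) lie on the minus strand of chromosome 5, in a row with Gabra4 (chr5:71569749-71658308). Gabrb1 (chr5:71658113-72149037) lies on the plus strand, head to head with Gabra4, and their annotated ends overlap by 196 bases. Of these, 46 exonic bases are shared, which is 0.332% of the exonic bases of Gabrb1. Gabrg3 (chr7:56716465-57387188) and Gabra5 (chr7:57407672-57510059) lie next to each other on the minus strand of chromosome 7. Gabra5 shares 148 exonic bases, 4.98% of its own, with the antisense transcript Gm9962. Gabra3 (chrX:72432681-72656848) lies on the X chromosome. The sources used here do not say whether counting used the strand, so reads in the shared stretches cannot be assigned to 1 gene.

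Libraries held 32307869 to 51569143 counts, and the 6 genes had 381 to 8214 counts each per library. Levels are given as CPM, the counts scaled to a common library size, after TMM scaling. Of 12 markers of the paraventricular thalamus, all were in the table, their summed level ran from 2839 to 3486 CPM over the 9 libraries, and none passed in any comparison by edgeR. Of all genes 6.41% passed in SHNK against stressed saline, 1.17% in stressed saline against non-stressed saline and 0.0055% in SHNK against non-stressed saline. At an unadjusted p under 0.05 there were 5 of 12 in SHNK against stressed saline, where 23.3% of all genes were, 0 in stressed saline against non-stressed saline (9.45% of all genes) and 1 in SHNK against non-stressed saline (18.3%). Markers of the habenula, which borders the nucleus, differed between groups. The 13 measured ones summed to 116.6 to 127 CPM in SHNK libraries, 335.3 to 918.9 CPM in stressed saline libraries and 155.9 to 222.2 CPM in non-stressed saline libraries.

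Among the alpha genes, Gabra2 encodes the alpha 2 subunit, known for synapses on cell bodies and axon initial segments and for the anxiety-reducing action of benzodiazepines. Gabra2 had 128.3, 111.5 and 147.9 CPM in the 3 SHNK libraries, 125.6, 142.0 and 102.8 CPM in the stressed saline libraries and 134.7, 119.0 and 96.0 CPM in the non-stressed saline libraries. The groups overlapped in every comparison, with the highest value in SHNK replicate 3 and the lowest in non-stressed saline replicate 3. Gabra3 encodes alpha 3, the main alpha subunit of the reticular thalamus. Gabra3 had 80.5, 87.7 and 93.1 CPM in SHNK libraries, 80.6, 77.3 and 63.7 CPM in stressed saline libraries and 89.2, 73.7 and 85.2 CPM in non-stressed saline libraries. The lowest SHNK library lay just under the highest stressed saline library, and the lowest value of all was stressed saline replicate 3. Gabra5 encodes alpha 5, known for extrasynaptic receptors that carry tonic inhibition in the hippocampus. Gabra5 had 79.6, 72.5 and 94.1 CPM in SHNK libraries, 79.4, 74.3 and 62.1 CPM in stressed saline libraries and 81.5, 78.2 and 74.8 CPM in non-stressed saline libraries. SHNK replicate 3 was again the highest and stressed saline replicate 3 the lowest, and the other 7 libraries lay close together.

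Gabrb1 encodes beta 1, a beta subunit, the class that forms the GABA site with alpha. It had the highest CPM of the 6 genes, with 172.7, 150.1 and 179.1 CPM in SHNK libraries, 169.6, 139.6 and 126.6 CPM in stressed saline libraries and 170.5, 165.5 and 153.9 CPM in non-stressed saline libraries. Stressed saline held the 2 lowest values, and its replicate 1 lay within the range of the SHNK and the non-stressed saline groups. Gabrg1 encodes gamma 1, a gamma subunit with weak benzodiazepine response that is also known in astrocytes. Gabrg1 had 56.9, 51.8 and 67.2 CPM in SHNK libraries, 64.0, 65.5 and 44.7 CPM in stressed saline libraries and 67.5, 57.9 and 55.9 CPM in non-stressed saline libraries. The 3 groups overlapped, and stressed saline replicate 3 lay below the other 8 libraries. Gabrg3 encodes gamma 3, a sparse gamma subunit of the brain, and was the least abundant of the 6. Gabrg3 had 13.3, 11.4 and 12.5 CPM in SHNK libraries, 13.4, 9.96 and 10.7 CPM in stressed saline libraries and 12.2, 13.3 and 11.3 CPM in non-stressed saline libraries. The groups overlapped, with both the highest and the lowest value in stressed saline.

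**Figure D1:**
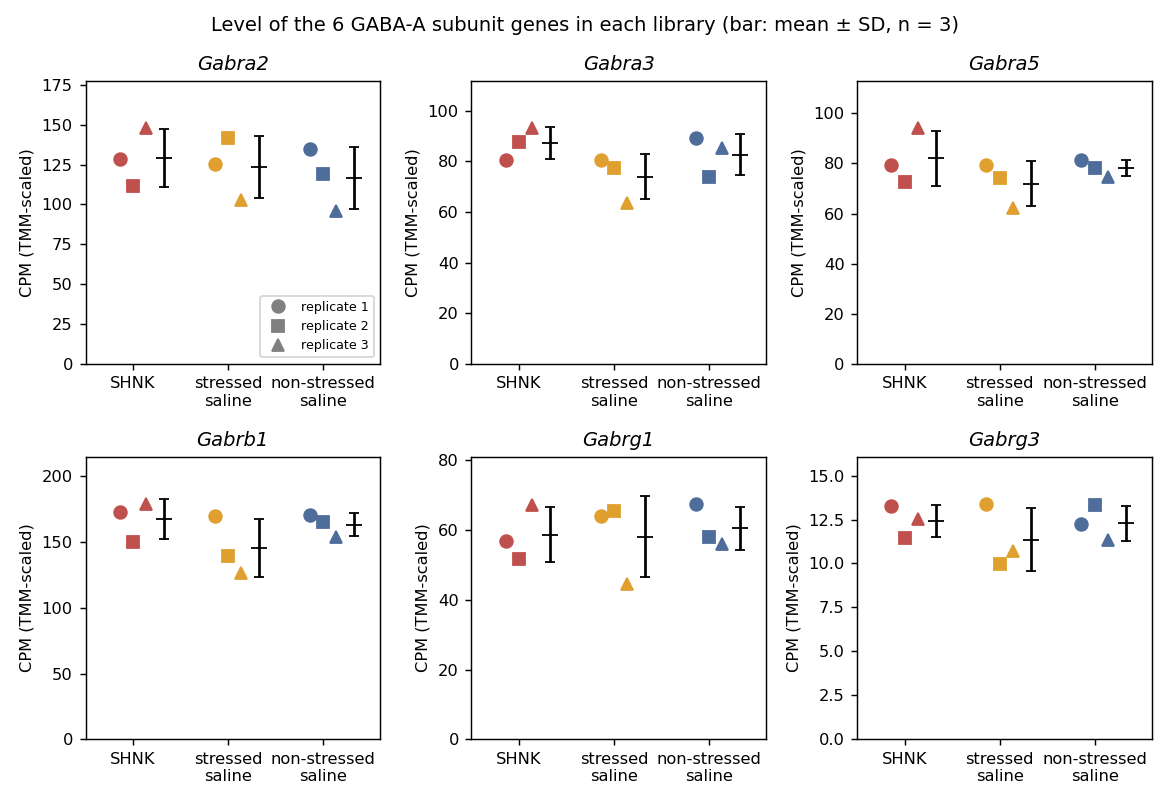
Level of each gene (CPM after TMM scaling, vertical axis from 0) in each of the 9 libraries, with groups along the horizontal axis, marker shapes for replicates 1, 2 and 3 and a bar for the mean ± SD (n = 3). For all 6 genes the points of the 3 groups overlap, and 4 of the 6 genes are lowest in stressed saline replicate 3.

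Among the 6 genes, the highest level over the lowest across the 9 libraries ran from 1.35 for Gabrg3 to 1.54 for Gabra2. In 4 of the 6 the highest library was SHNK replicate 3, and in 4 of the 6 the lowest was stressed saline replicate 3.

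SHNK against stressed saline asks which genes differed with the drug after defeat. None of the 6 genes passed the test, and the intervals of all 6 fold changes lay between 0.819-fold and 1.38-fold. By edgeR's quasi-likelihood test, with Benjamini-Hochberg adjustment over all 18194 genes and a threshold of 0.05, 0 of 6 passed, where 6.41% of all genes did. DESeq2 and limma voom with sample weights also called 0 of the 6. At an unadjusted p under 0.05 it was 1 of 6, Gabra3, where 23.3% of all genes were. All 6 log2 fold changes were above 0, with a median of 0.16 beside -0.01 over all genes. Of all genes, 48.7% were above 0, and the 6 are not independent of each other. In none of the 6 were the SHNK and stressed saline libraries free of overlap, which held for 30.4% of all genes.

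Gabra3 came nearest to the threshold. It averaged 87.1 ± 6.34 CPM in SHNK and 73.9 ± 8.95 CPM in stressed saline libraries (SD, n = 3 each), with a log2 fold change of 0.24 ± 0.11 (SE) and an adjusted p of 0.193 in edgeR. Gabrb1 averaged 167.3 ± 15.2 CPM in SHNK and 145.3 ± 22.04 CPM in stressed saline libraries, a log2 fold change of 0.20 ± 0.11 with an adjusted p of 0.271 in edgeR. Gabra5 averaged 82.1 ± 11.02 CPM in SHNK and 72.0 ± 8.89 CPM in stressed saline libraries, a log2 fold change of 0.19 ± 0.11 with an adjusted p of 0.326 in edgeR. For these 3 genes the SHNK and stressed saline libraries overlapped. With 1 library left out at a time the log2 fold change ran from 0.14 to 0.30 for Gabra3, from 0.11 to 0.33 for Gabrb1 and from 0.08 to 0.27 for Gabra5. The lowest value came without stressed saline replicate 3 for Gabra3 and Gabrb1, and without SHNK replicate 3 for Gabra5. The other 3 genes differed less. The log2 fold change was 0.13 ± 0.13 for Gabrg3 (0.04 to 0.26 with 1 library left out), 0.07 ± 0.14 for Gabra2 and 0.01 ± 0.14 for Gabrg1. The last 2 turned below 0 without stressed saline replicate 3, at -0.05 for Gabra2 and -0.15 for Gabrg1, and also without SHNK replicate 3, at -0.04 for Gabra2 and -0.10 for Gabrg1.

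Stressed saline against non-stressed saline asks which genes differed with defeat. Here too none of the 6 passed, and their fold-change intervals lay between 0.759-fold and 1.30-fold. By edgeR 0 of 6 passed, where 1.17% of all genes did. DESeq2 and voom called 0, and 0 of 6 had an unadjusted p under 0.05, where 9.45% of all genes had. Gabrb1 differed most, at 145.3 ± 22.04 CPM in stressed saline and 163.3 ± 8.49 CPM in non-stressed saline libraries (SD, n = 3 each), a log2 fold change of -0.17. Gabra3 averaged 73.9 ± 8.95 CPM in stressed saline and 82.7 ± 8.03 CPM in non-stressed saline libraries, a log2 fold change of -0.16. The log2 fold change was -0.12 for Gabra5, -0.11 for Gabrg3 and -0.06 for Gabrg1. Gabra2, at 0.08, was the 1 gene of the 6 above 0, with 45.5% of all genes above 0. It turned below 0, at -0.04 without non-stressed saline replicate 3 and -0.03 without stressed saline replicate 2. With 1 library left out at a time the log2 fold change ran from -0.29 to -0.08 for Gabrb1, from -0.24 to -0.07 for Gabra3, from -0.20 to -0.02 for Gabra5 and from -0.25 to -0.02 for Gabrg3. The adjusted p of the 6 ran from 0.735 to 0.983 in edgeR. In none of the 6 were the 2 groups free of overlap, which held for 12.9% of all genes.

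SHNK against non-stressed saline sets the treated, defeated group against the group with neither. By edgeR 0 of 6 passed, where 1 of all genes did, or 0.0055%. DESeq2 and voom called 0 of the 6, and 0 of 6 had an unadjusted p under 0.05, where 18.3% of all genes had. Gabra2 averaged 129.2 ± 18.2 CPM in SHNK and 116.5 ± 19.5 CPM in non-stressed saline libraries (SD, n = 3 each), a log2 fold change of 0.15. Gabra3 and Gabra5 were at 0.07 each, Gabrb1 at 0.03, Gabrg3 at 0.02 and Gabrg1 at -0.05 on the log2 scale, with adjusted p from 0.620 to 0.967 in edgeR and fold-change intervals between 0.787-fold and 1.36-fold. Thus 5 of 6 were above 0, where 49.2% of all genes were, and in none of the 6 were the groups free of overlap, which held for 21.3% of all genes. In the test of any difference among the 3 groups 0 of 6 passed, where 4.88% of all genes did, and the lowest adjusted p was 0.338, for Gabra3. The first 2 comparisons share the stressed saline libraries, so their values are not independent of each other.

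**Figure D2:**
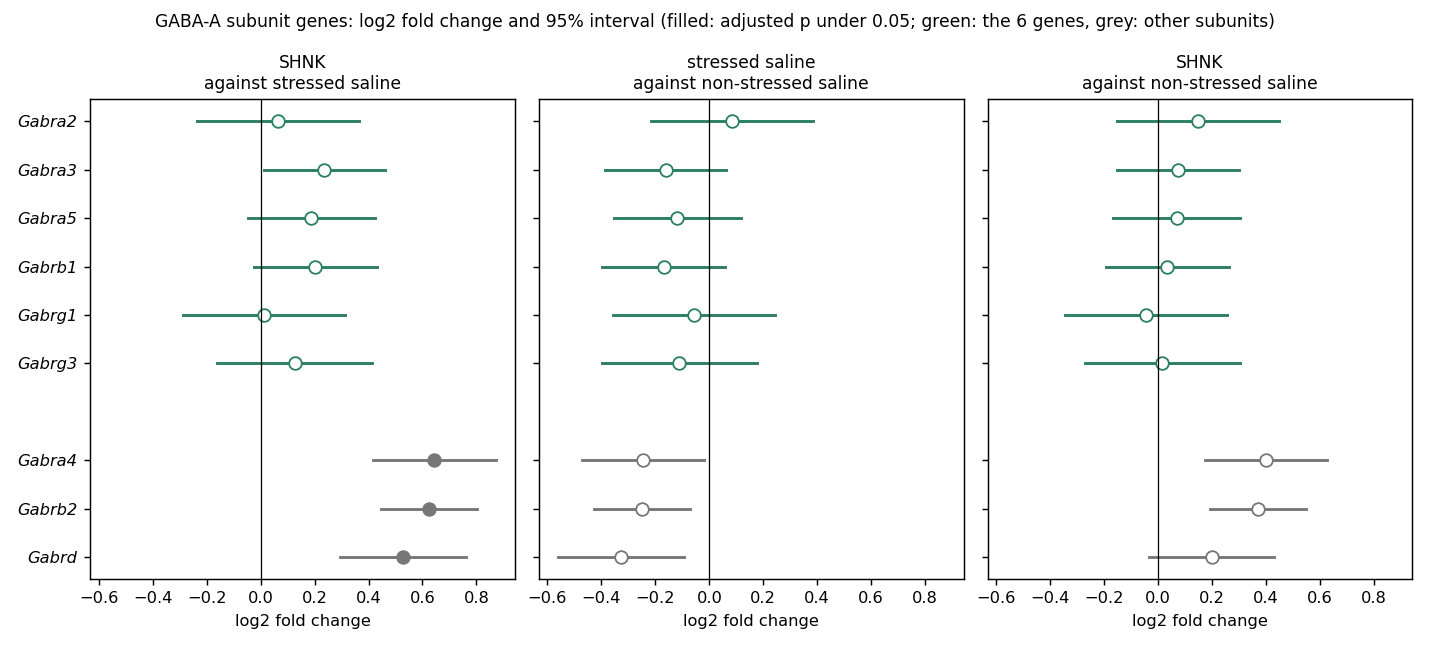
Log2 fold change (horizontal axis) with its 95% interval for the 6 genes (green) and 3 other subunit genes (grey), 1 panel per comparison. Filled circles, with adjusted p under 0.05 in edgeR, appear in the left panel (SHNK against stressed saline) for Gabra4, Gabrb2 and Gabrd, and for none of the 6 genes in any panel.

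Other subunits of the same family did rise. Of 10 other GABA-A subunit genes on the list, 6 were in the table and all 6 were tested, and 3 of the 6 rose in SHNK against stressed saline by edgeR, where 2.45% of all genes rose. Gabra4, which encodes alpha 4 of extrasynaptic thalamic receptors, averaged 353.2 CPM in SHNK and 225.9 CPM in stressed saline libraries (n = 3 each), with a log2 fold change of 0.64 ± 0.11 (SE) and an adjusted p of 0.00496 in edgeR. Gabrb2, which encodes beta 2, averaged 161.3 CPM in SHNK and 104.8 CPM in stressed saline libraries, with 0.62 ± 0.08 and an adjusted p of 0.00134 in edgeR. Both passed without any 1 of the 9 libraries. Gabrd, which encodes the delta subunit that replaces gamma in tonic receptors, had 0.53 ± 0.11 and an adjusted p of 0.0141 in edgeR, lost without stressed saline replicate 2 (0.0623), SHNK replicate 2 (0.0675) or SHNK replicate 3 (0.0736). In stressed saline against non-stressed saline 0 of these 6 passed by edgeR, where 1.17% of all genes did. An unadjusted p under 0.05 was found for 3 of them, where 9.45% of all genes had one. For SHNK set against the non-stressed group 0 of 6 passed by edgeR, where 0.0055% of all genes did. In that comparison 2 had an unadjusted p under 0.05, where 18.3% of all genes had. DESeq2 called Gabra4 and Gabrb2 higher there. Gabrd fell with defeat when stressed saline replicate 3 was left out (adjusted p 0.0337 in edgeR), and Gabrb2 rose in SHNK against non-stressed saline when non-stressed saline replicate 2 was left out (0.0279).

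A call in 1 gene and none in another does not show that they differ, so Gabra2, Gabra3 and Gabra5 were set against Gabra4, and Gabrb1 against Gabrb2, within each library. These ratios were chosen after the values were seen. The 4 ratios and 3 comparisons give 12 tests, each an exact two-sided permutation test whose smallest possible p with 3 against 3 libraries is 0.10, so none could pass 0.05, and the lowest adjusted p over the 12 was 0.15. The values are therefore a description. Gabra2 over Gabra4 was 0.413, 0.320 and 0.369 in SHNK libraries, 0.507, 0.632 and 0.501 in stressed saline libraries and 0.464, 0.438 and 0.397 in non-stressed saline libraries. The SHNK ratios all lay below the stressed saline ratios, with a log2 difference of -0.57 (exact permutation p 0.10), and the stressed saline ratios all lay above the non-stressed saline ratios, with a difference of 0.33. Gabra3 over Gabra4 was 0.260, 0.252 and 0.233 in SHNK libraries, 0.325, 0.344 and 0.311 in stressed saline libraries and 0.307, 0.272 and 0.352 in non-stressed saline libraries. SHNK lay below both other groups without overlap, with a log2 difference of -0.40 from stressed saline. Gabra5 over Gabra4 was 0.256, 0.208 and 0.235 in SHNK libraries, 0.321, 0.331 and 0.303 in stressed saline libraries and 0.281, 0.288 and 0.310 in non-stressed saline libraries. Again SHNK lay below both, with a log2 difference of -0.45 from stressed saline. Gabrb1 over Gabrb2 was 1.11, 0.910 and 1.10 in SHNK libraries, 1.54, 1.43 and 1.19 in stressed saline libraries and 1.36, 1.23 and 1.34 in non-stressed saline libraries. SHNK lay below both other groups without overlap, with a log2 difference of -0.41 from stressed saline.

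The 4 ratios shown lay lower in SHNK than in stressed saline without overlap. They are part of a larger set of subunit ratios that did not all separate these groups, so their uniformity is no result. They share genes and libraries, and both denominators, Gabra4 and Gabrb2, rose in that comparison. In SHNK against non-stressed saline 3 of the 4 were lower without overlap, the exception being Gabra2 over Gabra4 with a log2 difference of -0.24. In stressed saline against non-stressed saline 1 of the 4, Gabra2 over Gabra4, was higher without overlap. Of all single genes, 30.4% were free of overlap in SHNK against stressed saline and 21.3% in SHNK against non-stressed saline. With defeat it was 12.9%. No such share was computed for ratios.

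**Figure D3:**
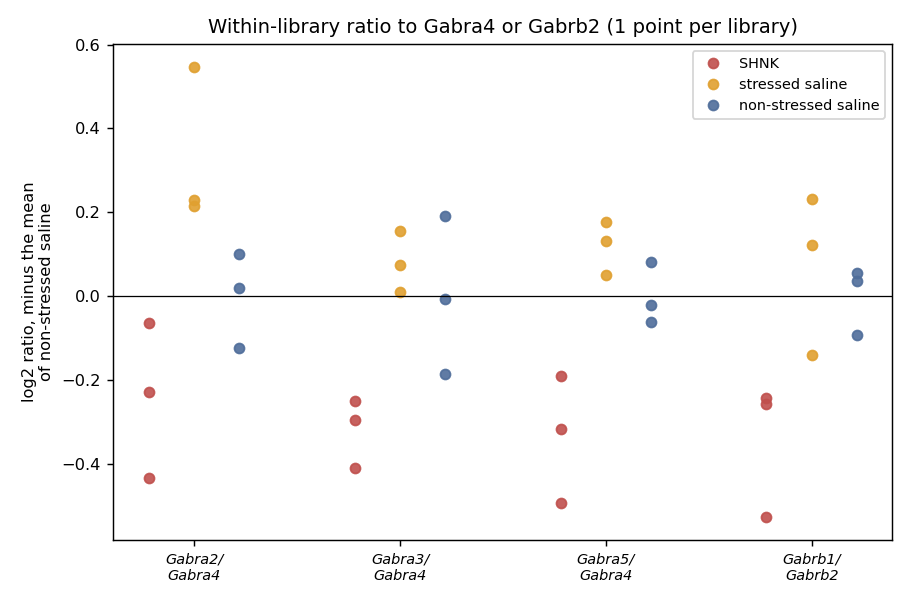
Log2 ratio of Gabra2, Gabra3 and Gabra5 to Gabra4 and of Gabrb1 to Gabrb2 within a library, minus the mean of the non-stressed saline libraries (vertical axis), for 4 ratios (horizontal axis), 1 point per library. SHNK points lie below all stressed saline points in the 4 ratios shown, which are part of a larger set that did not all separate the groups.

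Levels of different genes were compared per kilobase of the longest protein-coding transcript. Over the 9 libraries Gabra5 averaged 29.0 ± 3.19 CPM per kilobase (SD, n = 9), Gabra3 22.2 ± 2.44, Gabra2 21.03 ± 2.98, Gabrg1 12.4 ± 1.62, Gabrb1 11.6 ± 1.26 and Gabrg3 1.23 ± 0.13 CPM per kilobase. Gabra3 and Gabra2 differed by less than their spread, as did Gabrg1 and Gabrb1. The order depends on the length used. The longest Gabrb1 transcript has 13737 bases, of which 1422 are coding, and per kilobase of coding sequence Gabrb1 came first of the 6 with 111.5 CPM and Gabra2 second with 91.0 CPM. By either length Gabra4 was higher than each of the 6, and Gabrg3 was the lowest.

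On this scale Gabra2, Gabra3 and Gabra5 together made up 47.2% ± 2.08 of the summed level of Gabra2, Gabra3, Gabra4 and Gabra5 in SHNK libraries, 55.3% ± 1.74 in stressed saline libraries and 52.4% ± 1.07 in non-stressed saline libraries (SD, n = 3 each). The highest SHNK library, at 49.4%, lay below the lowest stressed saline library, at 53.9%, and below the lowest non-stressed saline library, at 51.4%. The difference between SHNK and stressed saline was -8.14 percentage points, and -8.46 by coding length. Gabra2 held 13.6% in SHNK, 17.1% in stressed saline and 14.5% in non-stressed saline libraries. Gabra3 held 14.7% in SHNK, 16.4% in stressed saline and 16.5% in non-stressed saline libraries, and Gabra5 18.9% in SHNK, 21.8% in stressed saline and 21.4% in non-stressed saline libraries. Gabra4 held the remaining 52.8% in SHNK, 44.7% in stressed saline and 47.6% in non-stressed saline libraries. Its level averaged 86.0 CPM per kilobase in SHNK and 55.0 in stressed saline libraries. The smaller shares in SHNK do not stand for lower levels of the other alpha genes. Between SHNK and stressed saline Gabra2 averaged 22.1 and 21.1, Gabra3 23.8 and 20.2, and Gabra5 30.7 and 26.9 CPM per kilobase. Gabrb1 held 23.1% ± 1.94 of the sum of Gabrb1 and Gabrb2 in SHNK libraries, 28.6% ± 2.68 in stressed saline libraries and 27.6% ± 1.12 in non-stressed saline libraries. By coding length Gabrb1 held the larger part, at 52.8% in SHNK, 59.8% in stressed saline and 58.6% in non-stressed saline libraries. These shares rest on the same counts as the ratios and are no separate result.

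**Figure D4:**
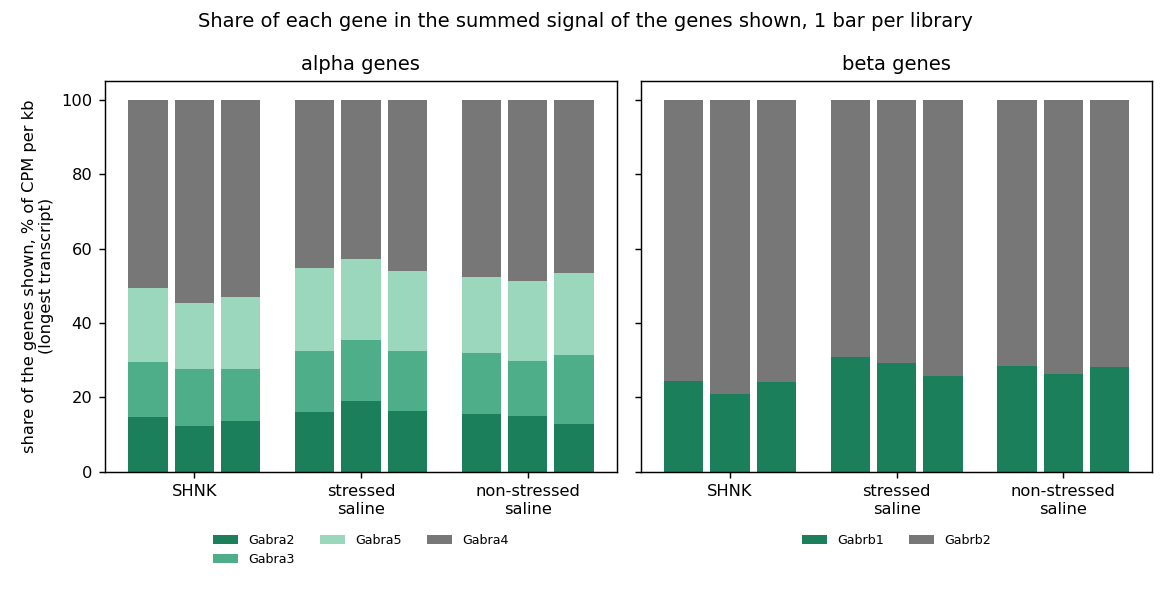
Share of each gene in the summed CPM per kilobase of the genes shown (vertical axis, percent), 1 bar per library, with SHNK, stressed saline and non-stressed saline along the horizontal axis and 1 panel each for 4 alpha and 2 beta genes. The green segments of the alpha panel, which are Gabra2, Gabra3 and Gabra5, are shorter in the SHNK bars, at 47.2% on average beside 55.3% in stressed saline. The mean levels of these genes themselves were not lower in SHNK, while that of Gabra4 was higher.

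The patterns of the 6 genes over the 9 libraries were compared by Pearson's r of log2 CPM, given as a description, since the libraries share groups and scaling. The most alike pair was Gabra5 and Gabrb1, with r of 0.90, which lie on different chromosomes, and the least alike was Gabra2 and Gabrg3, with 0.21. The neighbours Gabra2 and Gabrg1 had r of 0.80 and the neighbours Gabra5 and Gabrg3 had 0.57. Among 12448 candidate genes, the 3 nearest to Gabra3 were Wdr47, Mcf2 and Nckap1, with r of 0.97 each, and the 3 nearest to Gabra5 were Tmem185b, Sc5d and Rmst, with r from 0.95 to 0.96. Those nearest to Gabra2 were Platr25, Mysm1 and Tbc1d23, with r from 0.94 to 0.95. Those nearest to Gabrb1 were Mapre1, Scd3 and Atxn3 (0.93 to 0.95), those nearest to Gabrg1 were Hcrtr2, Zfp160 and Cggbp1 (0.94 to 0.95), and those nearest to Gabrg3 were Pdzph1, Srgap1 and Pcdh19 (0.89 to 0.93). With 9 libraries high values are frequent. The 99th percentile of r over all candidates ran from 0.73 for Gabrg3 to 0.86 for Gabra3.

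Genes that anchor and traffic GABA-A receptors were listed with the subunits. All 28 were tested, and in SHNK against stressed saline 1 rose and 2 fell by edgeR, where 2.45% of all genes rose and 3.96% fell, with a median log2 fold change of -0.10 beside -0.01 over all genes. Nsf, an ATPase of membrane fusion that acts in receptor trafficking, averaged 1338 ± 45.6 CPM in SHNK and 1083 ± 50.8 CPM in stressed saline libraries (SD, n = 3 each), with a log2 fold change of 0.30 ± 0.08 (SE) and an adjusted p of 0.0320 in edgeR. The call was lost without each of the stressed saline replicates (0.0637, 0.0838 and 0.101), SHNK replicate 2 (0.105) or SHNK replicate 3 (0.136). Mdga1, a cell-surface protein that binds neuroligin 2 and restrains inhibitory synapses, fell to 4.21 ± 1.45 CPM in SHNK, against 11.8 ± 1.53 CPM in stressed saline libraries, with -1.48 ± 0.20 and an adjusted p of 0.00169 in edgeR, and passed without any 1 library. Plcl1, which encodes a phospholipase C-related protein that binds GABARAP and receptor beta subunits, fell to 8.68 ± 1.31 CPM in SHNK, against 13.7 ± 2.05 CPM in stressed saline libraries, with -0.66 ± 0.15 and an adjusted p of 0.0205 in edgeR. This call was lost without stressed saline replicate 2 (0.0933), SHNK replicate 2 (0.0630) or SHNK replicate 3 (0.110). Gphn, which encodes the scaffold gephyrin, averaged 55.0 ± 4.04 CPM in SHNK and 52.7 ± 1.53 CPM in stressed saline libraries, a log2 fold change of 0.06, and was picked out after its values were seen. In both other comparisons 0 of 28 passed by edgeR, where 1.17% of all genes did with defeat and 0.0055% in SHNK against non-stressed saline. An unadjusted p under 0.05 was found for 3 of 28 with defeat, beside 9.45% of all genes, and for 8 of 28 where SHNK was set against non-stressed saline, beside 18.3% of all genes.

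Markers of other regions and cell types moved between SHNK and stressed saline, beside the ratios and the shares. Of 13 habenula markers 12 fell, of 15 astrocyte markers 8 fell and of 15 ependyma markers 8 fell, while of 15 thalamic relay markers 9 rose. Of 5 blood genes 4 rose. Falls were also called for 5 of 11 hippocampus, 3 of 11 choroid plexus and 3 of 15 striatum and septum markers. Over all genes 2.45% rose and 3.96% fell by edgeR in this comparison. Of the other lists, 1 of 12 hypothalamus, 1 of 12 oligodendrocyte precursor and 1 of 14 blood vessel markers fell. In the list of GABA neurons and the reticular thalamus 1 of 13 rose. Of 15 oligodendrocyte, 12 microglia and 12 paraventricular thalamus markers none passed. The mean log2 CPM of the relay list was 7.94 ± 0.06 in SHNK and 7.56 ± 0.05 in stressed saline libraries, and that of the astrocyte list 7.43 ± 0.05 in SHNK and 7.91 ± 0.14 in stressed saline libraries (SD, n = 3 each). The habenula list averaged 1.04 ± 0.35 in SHNK, 4.84 ± 0.79 in stressed saline and 2.74 ± 0.63 in non-stressed saline libraries. In stressed saline against non-stressed saline 10 of 13 habenula markers and 11 of 15 ependyma markers rose, where 1.15% of all genes did, as did 2 markers each of the hippocampus, striatum and septum, astrocyte and choroid plexus lists. In SHNK against non-stressed saline no marker of these lists passed by edgeR, where 0.0055% of all genes did. An unadjusted p under 0.05 was found there for 18.3% of all genes. It was found for 8 of 13 habenula, 10 of 15 astrocyte, 4 of 15 ependyma, 4 of 15 relay and 0 of 5 blood markers. The median log2 fold change was -1.65 for the habenula and -0.32 for the astrocyte list. The part of these markers in the subunit values was not tested.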

How the data were processed

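Bulk RNA was sequenced from 9 libraries, 3 per group, and groups were taken from the labels. Per the labels, 100 ng of total RNA entered SMARTer Ultra low and TruSeq library construction. The authors deposited raw read counts by gene symbol. The submitters' processing notes name Trimmomatic 0.38, HISAT2, StringTie, GRCm38 and mm10, while the sources used here give neither their roles nor the strandedness.

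Counts were filtered with filterByExpr (minimum count 10, total 15), scaled by TMM and fitted with 1 quasi-likelihood model for all 9 libraries (edgeR 4.0.16, R 4.3.3), with Benjamini-Hochberg adjustment over 18194 genes. DESeq2 1.42.0 and limma 3.58.1 were alternatives. Log2 CPM used a prior count of 2. The fit was tested on simulated data, where the share of false calls lay above the nominal threshold, so calls near it are less firm. Counts of 381 or more per gene and library leave the spread between libraries, not counting error, as the limit on precision. Lengths and coding sequences came from GENCODE M21.

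The 6 genes and 20 gene lists were chosen with earlier results of these data known. Beside the 6 genes, genes past the threshold in any comparison are named from the subunit, anchoring, chloride and neurosteroid lists (up to 4 per list and comparison), and for likeness the 3 genes with the highest r. Some other subunit genes and ratios to them are not reported here, and the counts and shares of subunits leave them out.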

Additional observations from a re-analysis of the deposited data

How the results depend on the processing

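None of the 6 genes passed in any comparison under any alternative (DESeq2, voom with sample weights, other scalings, other filters, a replicate block, the 2 compared groups only, each library left out, an adjusted p under 0.1). The threshold of 0.1 was used only with the main fit. The lowest adjusted p of the 6 was 0.0979 in edgeR, for Gabrb1 in SHNK against stressed saline without stressed saline replicate 1. Of 306 alternative values of the log2 fold changes of the 6 genes 285 kept their sign and 21 changed it, all of small values. The cause was not tested for any changed value. With voom Gabra2 was at -0.036 and Gabrg1 at -0.080 in SHNK against stressed saline, and Gabra5 at -0.0013, Gabrb1 at -0.020 and Gabrg3 at -0.011 in SHNK against non-stressed saline. Ranges with 1 library left out follow for genes that changed sign, and cover kept and changed values alike. In SHNK against stressed saline the values ran from -0.050 to 0.18 for Gabra2 and from -0.15 to 0.11 for Gabrg1. In stressed saline against non-stressed saline the range was -0.038 to 0.20 for Gabra2 and -0.15 to 0.10 for Gabrg1. In SHNK against non-stressed saline it was -0.0014 to 0.14 for Gabra3, -0.040 to 0.15 for Gabra5, -0.017 to 0.11 for Gabrb1, -0.15 to 0.042 for Gabrg1 and -0.040 to 0.076 for Gabrg3. Over all genes SHNK against stressed saline gave 1167 calls, 2005 with DESeq2, 2377 with voom, 2182 at an adjusted p under 0.1 and 176 (without SHNK replicate 3) to 1385 with 1 library left out. Stressed saline against non-stressed saline gave 213 calls, 472 with DESeq2, 102 with voom, 370 at an adjusted p under 0.1 and 40 (without stressed saline replicate 2) to 306. SHNK against non-stressed saline gave 1 call, 994 with DESeq2, 0 with upper-quartile scaling, with no filter and with a filter of 1 CPM in 3 libraries, 6 with a replicate block, 9 with the 2 groups only, 520 at an adjusted p under 0.1 and 0 to 749 (without non-stressed saline replicate 2). The alpha share difference of -8.14 points was -7.74 by median transcript length and -9.25 to -7.17 with 1 library left out. What the replicate numbers stand for is not stated in the labels. Deviations of same-numbered libraries from their group means correlated at -0.10 to 0.11, which with 3 libraries per group cannot exclude a pairing. The replicate block moved the adjusted p of Nsf in SHNK against stressed saline to 0.0512 in edgeR.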

Other observations

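Other parts of GABA signalling were measured beside the subunits. Of 14 chloride transport genes, which set the driving force for the receptor's current, 1 rose in SHNK against stressed saline by edgeR, where 2.45% of all genes rose. It was Slc4a10, a sodium-driven chloride and bicarbonate exchanger of neurons, with 64.4 ± 5.83 CPM in SHNK and 47.7 ± 5.12 CPM in stressed saline libraries (SD, n = 3 each), a log2 fold change of 0.43 ± 0.11 (SE) and an adjusted p of 0.0301. The call was lost without any 1 of stressed saline replicates 1 (0.0727) and 3 (0.0961) and SHNK replicates 1 (0.0509), 2 (0.0605) and 3 (0.159). Of the 14 chloride genes, 5 had an unadjusted p under 0.05 in this comparison, where 23.3% of all genes had. Of 6 measured genes of neurosteroid synthesis, whose products act on GABA-A receptors, 0 passed by edgeR, where 6.41% of all genes did. An unadjusted p under 0.05 was found for 2 of them, where 23.3% of all genes had one. In stressed saline against non-stressed saline 0 of the 14 chloride and 0 of the 6 neurosteroid genes passed by edgeR, where 1.17% of all genes did. From each list 1 had an unadjusted p under 0.05, where 9.45% of all genes had. With SHNK set against non-stressed saline 0 of either list passed by edgeR, where 0.0055% of all genes did. There 7 of 14 chloride and 1 of 6 neurosteroid genes had an unadjusted p under 0.05, where 18.3% of all genes had.

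The least abundant subunit genes of the table were Gabrq, Gabrr2 and Gabre. Gabrq, which encodes theta, had 2.11 to 3.73 CPM over the 9 libraries. Gabrr2, which encodes rho 2, had 0.75 to 1.75 CPM, and Gabre, which encodes epsilon, had 0.05 to 0.32 CPM. None of the 3 passed in any comparison by edgeR.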
